A study of Mus musculus with 12 samples.

Results

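Whole livers of ERKO mice, which lack oestrogen receptor alpha per the labels, were compared after PPT and after oil. PPT (propylpyrazoletriol) is an agonist selective for that receptor, so the comparison sets PPT against oil where its named target was missing. The PPT arrays also held transcripts of other tissues, given below, which cannot be told apart from the treatment in this design. The 4 arrays were those titled as ERKO experimental 1 and 2 (PPT) and ERKO control 1 and 2 (oil), out of 12 arrays in the series. The other 8 were MOER mice, which per the labels have oestrogen receptor alpha at the membrane only, and wild type mice, 2 arrays each of PPT and of oil. All groups were C57BL/6 mice, 3 months old, ovariectomized and left for 1 week to recover, so the oil controls lacked ovarian oestrogen too. PPT was injected at 100 µg per day for 3 days, and controls had 0.1 mL of oil. Each array held RNA pooled from 3 animals, and the study was carried out a second time. The labels do not state that the second pool came from other animals, so every p-value below measures only the spread between these arrays, which may be technical. The labels do not say how the receptor was removed, nor the hour at which livers were taken.

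Oestrogen receptor alpha is a nuclear receptor that binds DNA and regulates transcription, and a part of it sits at the cell membrane and signals through kinases. In liver it restrains lipid and bile acid synthesis and adjusts the response to growth hormone. Many liver genes differ between the sexes because pituitary growth hormone is released in pulses in male rodents and more evenly in females, and STAT5, a transcription factor that growth hormone activates, carries that pattern to the genome. The liver also runs a circadian clock, in which ARNTL (BMAL1) and CLOCK bind E-boxes and drive the Per, Cry and Dbp genes. NFIL3 and DBP compete for a separate element, the D-box, and ROR and NR1D receptors share the element that drives Arntl and Nfil3.

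The Affymetrix Mouse Gene 1.0 ST table listed 28815 probe sets, of which 19119 were tested because 2 or more of the 12 arrays read them above that array's 40th percentile. The tests ran on the log2(intensity + 16) scale with limma. In ERKO livers 1812 probe sets (9.48% of those tested) were higher with PPT and 1618 (8.46%) were lower, at a Benjamini-Hochberg adjusted p under 0.05. In none of them did the 2 PPT arrays overlap the 2 oil arrays. By gene, with 1 probe set for each of 13987 genes, 1041 rose (7.44%) and 1326 fell (9.48%). The PPT and oil arrays did not overlap for 6766 of these 13987 genes, called or not, so a lack of overlap adds little to a call. At least 2-fold changes were found for 226 probe sets that rose and 81 that fell. The 2 ERKO PPT arrays correlated at 0.994 across probe sets, with 20 of them more than 2-fold apart, against 0.981 and 162 for the 2 ERKO oil arrays and 0.994 to 0.996 and 2 to 21 for the other pairs. Probe sets are not independent replicates. The 3430 calls became 1766 without ERKO PPT 1, 1200 without ERKO PPT 2, 5346 without ERKO oil 1 and 5033 without ERKO oil 2, and 1036 of them were called in all 4 of those fits. Log2 changes below are PPT minus oil, each with the standard error of the limma fit, and the 2 arrays a group limit their precision. That error pools the spread of all 6 groups, of which the ERKO oil pair lay widest apart. A fit of the 4 ERKO arrays alone called 576 probe sets. Array medians lay between 77.5 and 85.26, and the 40th percentile between 53.576 and 60.98. Where both arrays of a group lay under their own 40th percentile, that group is called dim, and the brighter group is given as at least a fold, with the dim arrays set at no less than that percentile.

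Esr1 (probe set 10367600), the gene of the missing receptor, gave 145 and 162 in ERKO PPT, against 126 and 118 in ERKO oil. It gave 117 and 131 in MOER PPT and 126 and 128 in MOER oil, and 309 and 325 in wild type PPT and 347 and 365 in wild type oil. All ERKO and MOER arrays thus lay below all wild type arrays. The PPT minus oil difference within ERKO, 0.30 ± 0.093 (SE, adjusted p = 0.0496), lost its call in 11 of the 12 fits that left out 1 array, the highest adjusted p over all alternatives being 0.35. Which part of the transcript the probe set covers was not tested. Esr2, the gene of oestrogen receptor beta, did not pass the filter. Alb, serum albumin and the defining hepatocyte transcript, gave 19778 and 19311 in ERKO PPT, against 20629.5 and 14804 in ERKO oil, so the arrays read as liver, with oil replicate 2 below the other 3 arrays. These livers were bulk tissue, in which fewer cells of a type and less RNA per cell cannot be told apart.

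Many of the largest rises with PPT in ERKO livers were transcripts of tissues other than liver. Among 96 genes of skeletal muscle matched in the table, with no filter on brightness, 78 were higher in both PPT arrays than in both oil arrays (81.2%, against 23.1% of all 19935 matched genes) and 1 was lower in both (21.1% of all genes). The median difference was 1.02 on the log2 scale, beside 0.02 over all genes. Of 79 that passed the filter, 35 passed only through the ERKO PPT arrays. Of those 79, 60 rose and 0 fell (2 without ERKO oil 1), with 54 to 64 rising when any 1 array was left out. The tested members summed to 50269 and 48192 in ERKO PPT, against 6758 and 6841 in ERKO oil, and to 6613 to 7499 in the other 8 arrays, so both PPT arrays carried the signal at the same height and no other array did.

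Smpx, a small protein of striated muscle (probe set 10602756), gave 6012 and 6689.99 in ERKO PPT, against 24.6 and 31.6 in ERKO oil (at least 113-fold, adjusted p = 1.06e-10). Tnnc2, troponin C of fast fibres (10489545), gave 6499.5 and 5499 in ERKO PPT, against 64.96 and 71.2 in ERKO oil, a log2 change of 6.16 ± 0.12 (SE, adjusted p = 2.55e-10). The PPT and oil arrays were far apart for both genes and neither pair overlapped the other. Tnnt3, troponin T of fast fibres, gave 3598 and 3996 in ERKO PPT, against 119 and 137 in ERKO oil (4.72 ± 0.12, adjusted p = 1.29e-09), and Tnni2, the matching troponin I, gave 1273 and 1217 in ERKO PPT, against 58.95 and 68.7 in ERKO oil (3.98 ± 0.096, adjusted p = 1.11e-09). All 3 subunits of the fast troponin complex were thus bright on both PPT arrays, and over the other 8 arrays they spanned 55.3 to 80.7 (Tnnc2), 116 to 216 (Tnnt3) and 50.7 to 76.5 (Tnni2). Acta1, skeletal alpha-actin, gave 1780.3 and 1847 in ERKO PPT, against 81.8 and 69.3 in ERKO oil (4.32 ± 0.11, adjusted p = 1.79e-09). Ckm, muscle creatine kinase, gave 1116 and 1019 in ERKO PPT, against 58.98 and 62.2 in ERKO oil (3.82 ± 0.095, adjusted p = 1.15e-09). Myh1, a fast myosin heavy chain, gave 877 and 914 in ERKO PPT, against 13.9 and 12.1 in ERKO oil (at least 16.02-fold, adjusted p = 1.11e-09), and Atp2a1, the calcium pump of fast fibres, gave 1297 and 1088 in ERKO PPT, against 32.5 and 41.9 in ERKO oil (at least 21.2-fold, adjusted p = 1.11e-08).

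Ttn, the giant sarcomere spring, was at least 11.1-fold higher in PPT (adjusted p = 1.11e-09). Mybpc1, a myosin-binding protein, was at least 30.1-fold higher (adjusted p = 3.04e-08) and Cox8b, a cytochrome oxidase subunit of muscle and brown fat, at least 38.1-fold higher (adjusted p = 1.11e-09). Myl2, a ventricular and slow-fibre myosin light chain, gave 704 and 637 in ERKO PPT, against 43.1 and 43.8 in ERKO oil (at least 11.98-fold, adjusted p = 5.84e-09). Other slow-fibre genes were split. Myoz2, a Z-disc protein of slow and cardiac muscle, gave 818 and 643 in ERKO PPT, against 14.9 and 27.4 in ERKO oil (at least 12.98-fold, adjusted p = 5.2e-08), and Tnnc1, slow troponin C, gave 218 and 236 in ERKO PPT, against 84.2 and 61.95 in ERKO oil (1.46 ± 0.12, adjusted p = 2.21e-05). Myh7, the slow myosin heavy chain, gave 49.2 and 50.7 in ERKO PPT, against 38.2 and 44.9 in ERKO oil, and Tnni1, slow troponin I, gave 45.5 and 45.6 in ERKO PPT, against 28.3 and 32.4 in ERKO oil, and these last were dim on all 4 arrays and did not pass the filter. Klhl41 gave 1200.2 and 1032 in ERKO PPT, against 205 and 298 in ERKO oil (2.10 ± 0.18, adjusted p = 3.24e-05) and Cox7a1 gave 1151 and 1107 in ERKO PPT, against 259.5 and 160.1 in ERKO oil (2.38 ± 0.20, adjusted p = 2.79e-05), both with a level in oil arrays that is above the percentile. Several genes outside the list but abundant in muscle or fat stood among the largest rises: Fabp3, a fatty acid carrier of heart and muscle, with 1875 and 1809 in ERKO PPT, against 28.8 and 42.6 in ERKO oil (at least 32.9-fold, adjusted p = 1.11e-09), Pkia, an inhibitor of protein kinase A, with 491 and 427 in ERKO PPT, against 73.6 and 42.8 in ERKO oil (2.71 ± 0.17, adjusted p = 2.28e-06), and Slc25a4, the adenine nucleotide carrier of muscle mitochondria, with 1862 and 1665 in ERKO PPT, against 326 and 266 in ERKO oil (2.52 ± 0.11, adjusted p = 1.04e-07).

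Squamous epithelium, the layered lining of skin, mouth and oesophagus, gave the second such group. Of 122 genes matched, 64 were higher in both PPT arrays than in both oil arrays (52.5%) and 10 lower in both (8.2%), with a median difference of 0.22. Of 75 that passed the filter, 17 passed only through the ERKO PPT arrays. Of those 75, 29 rose and 4 fell, and 22 to 33 rose when 1 array was left out. The fallen count was 2 without either ERKO PPT array. Its tested members summed to 36323 and 36863 in ERKO PPT, against 10180.5 and 10129.9 in ERKO oil.

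Serpinb3a, a serine protease inhibitor of squamous cells (10357072), gave 6018 and 6818 in ERKO PPT, against 13.5 and 8.54 in ERKO oil (at least 115-fold, adjusted p = 1.88e-10). Serpinb12, a relative, gave 5224 and 5555 in ERKO PPT, against 22.9 and 22.8 in ERKO oil (at least 96.4-fold, adjusted p = 3.23e-09). Both were dim in oil and far brighter on both PPT arrays. Rptn (repetin), of the cornified envelope, gave 3439 and 3254 in ERKO PPT, against 11.8 and 26.2 in ERKO oil (at least 59.8-fold, adjusted p = 4.58e-09), and Krtdap, a secreted differentiation marker, gave 2843 and 2980.2 in ERKO PPT, against 19.01 and 4.05 in ERKO oil (at least 52.1-fold, adjusted p = 5.84e-09). Krt13, a keratin of wet squamous linings, gave 2447 and 2288 in ERKO PPT, against 38.3 and 35.5 in ERKO oil (at least 42.3-fold, adjusted p = 3.23e-09), and Krt4, its partner, gave 451 and 435 in ERKO PPT, against 13.4 and 32.8 in ERKO oil (at least 7.93-fold, adjusted p = 7.02e-06). Sprr3, an envelope precursor of oesophagus, gave 592 and 555 in ERKO PPT, against 21.01 and 28.4 in ERKO oil (at least 10.2-fold, adjusted p = 2.51e-08). In each of these genes the PPT arrays lay far above the oil arrays. Asprv1, a protease of the outer epidermis, gave 1038 and 904 in ERKO PPT, against 69.04 and 123 in ERKO oil (3.18 ± 0.19, adjusted p = 1.63e-06), and Lce1c, an envelope gene outside the list, 510.3 and 579 in ERKO PPT, against 41.6 and 56.7 in ERKO oil (at least 9.73-fold, adjusted p = 2.52e-05). Other upper-layer genes did not pass: Ivl (involucrin), an envelope precursor, gave 64.5 and 75.7 in ERKO PPT, against 55.6 and 61.5 in ERKO oil (0.21 ± 0.12, adjusted p = 0.265), and Krt10, a keratin of the layers above the basal one, gave 106 and 104 in ERKO PPT, against 87.2 and 93.04 in ERKO oil (0.19 ± 0.10, adjusted p = 0.238).

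Of the basal layer, the keratin Krt5 gave 64.9 and 56.2 in ERKO PPT, against 50.1 and 66.4 in ERKO oil and Krt14 gave 53.4 and 61.2 in ERKO PPT, against 51.6 and 53.1 in ERKO oil, near the 40th percentile in all 4 arrays, and Trp63, the basal-layer transcription factor, gave 45.8 and 47.2 in ERKO PPT, against 51.3 and 58.9 in ERKO oil and did not pass the filter. Members above the percentile in oil arrays moved both ways. Tgm1, a transglutaminase, gave 127 and 98.95 in ERKO PPT, against 203 and 192 in ERKO oil (-0.73 ± 0.11, adjusted p = 0.00163), and Gjb2, a gap junction connexin, gave 1027 and 961 in ERKO PPT, against 1474 and 1539 in ERKO oil (-0.59 ± 0.089, adjusted p = 0.00163), and both fell. Cldn1, a tight junction claudin, rose, with 920.1 and 903 in ERKO PPT, against 703 and 699.7 in ERKO oil (0.37 ± 0.089, adjusted p = 0.0177), a call lost without either ERKO PPT array. Ly6d, a surface protein, gave 2248 and 2011 in ERKO PPT, against 762 and 538 in ERKO oil (1.71 ± 0.16, adjusted p = 6.42e-05), with 21658 and 21989.8 in wild type PPT, against 523 and 458 in wild type oil. Fam25c gave 1814 and 1747 in ERKO PPT, against 822 and 664 in ERKO oil (1.25 ± 0.12, adjusted p = 8.32e-05). The sum of tested squamous genes in the other 8 arrays, 9563 to 36608, had its upper end in wild type PPT, where Ly6d and Krt4 were bright too.

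Airway markers were split. Of 43 matched genes, 11 were higher in both PPT arrays than in both oil arrays (25.6%) and 8 lower in both (18.6%), close to the shares over all genes, and of the 21 that passed the filter 4 rose and 4 fell. Of those 21, 2 passed only through the ERKO PPT arrays, Sftpc and Scgb1a1, both among the risen. The count that fell was 2 without ERKO PPT 1. Sftpc, surfactant protein C of alveolar cells, gave 1903 and 1741 in ERKO PPT, against 17.4 and 23.7 in ERKO oil (at least 32.6-fold, adjusted p = 1.15e-09), and Scgb1a1, the secretoglobin of club cells, gave 1162 and 1134 in ERKO PPT, against 6.73 and 3.51 in ERKO oil (at least 20.5-fold, adjusted p = 1.88e-10). Over the other 8 arrays Sftpc spanned 11.1 to 19.5 and Scgb1a1 3.02 to 9.19, so no other array came near. Other lung genes stayed dim: Sftpb, surfactant protein B, gave 28.4 and 52.1 in ERKO PPT, against 36.4 and 31.2 in ERKO oil, Scgb3a2 gave 26.1 and 23.7 in ERKO PPT, against 21.6 and 33.4 in ERKO oil and Bpifa1 gave 19.2 and 13.5 in ERKO PPT, against 15.6 and 15.9 in ERKO oil, and none of the 3 passed the filter. Foxj1, the regulator of motile cilia, gave 66.4 and 72.8 in ERKO PPT, against 57.9 and 94.2 in ERKO oil, so its PPT values lay within its oil range. In all, 25 of the 43 were dim in both PPT arrays, though 0 members were listed at 0 there. Rsph4a, a protein of the ciliary axoneme, gave 21.5 and 15.4 in ERKO PPT, against 119 and 76.96 in ERKO oil (at least 1.62-fold lower in PPT, adjusted p = 8.89e-05).

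Reg3b and Reg3g, secreted lectins of gut and pancreas that bind bacteria, were bright as well. Reg3b (10539179) gave 2745 and 2732 in ERKO PPT, against 14.2 and 14.4 in ERKO oil (at least 48.98-fold, adjusted p = 1.11e-09), and Reg3g, on the airway list, gave 754 and 744 in ERKO PPT, against 7.89 and 3.55 in ERKO oil (at least 13.4-fold, adjusted p = 9.14e-09). PPT raised both in MOER livers too, Reg3b with 389 and 386 in MOER PPT, against 11.02 and 21.7 in MOER oil. The MOER oil arrays held transcripts of acinar pancreas. Try4, for example, gave 25170 and 16725 in MOER oil, against 86.6 and 74.3 in MOER PPT. The tested acinar genes summed to 953 to 55242 over the 8 arrays other than ERKO, and 18 of them fell with PPT in MOER. Of 23 acinar pancreas genes tested, 3 rose and 0 fell (1 rose without either ERKO PPT array and 5 without ERKO oil 2, and 3 fell without ERKO oil 1), the tested members summing to 1305 and 1299.9 in ERKO PPT, against 972 and 1269.8 in ERKO oil. Of 12 smooth muscle genes tested, 5 rose and 0 fell (1 fell without ERKO oil 2). The 12 summed to 2042 and 2079 in ERKO PPT, against 980 and 949.7 in ERKO oil, and without the 2 that are also on the skeletal muscle list, Tpm2 and Des, the sums were 1139.9 and 1154 in ERKO PPT, against 899 and 848 in ERKO oil, and 754 to 1218 in the other 8 arrays. Tpm2, beta-tropomyosin, gave 687 and 728 in ERKO PPT, against 41.2 and 74.2 in ERKO oil (3.33 ± 0.18, adjusted p = 6.25e-07). The 5 also included Acta2, smooth muscle actin, with 221 and 221 in ERKO PPT, against 114 and 77.8 in ERKO oil (1.10 ± 0.15, adjusted p = 0.001), and Des, desmin, which skeletal muscle also has, with 215 and 197 in ERKO PPT, against 40.1 and 27.8 in ERKO oil (at least 3.68-fold, adjusted p = 4.69e-06).

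**Figure D1:**
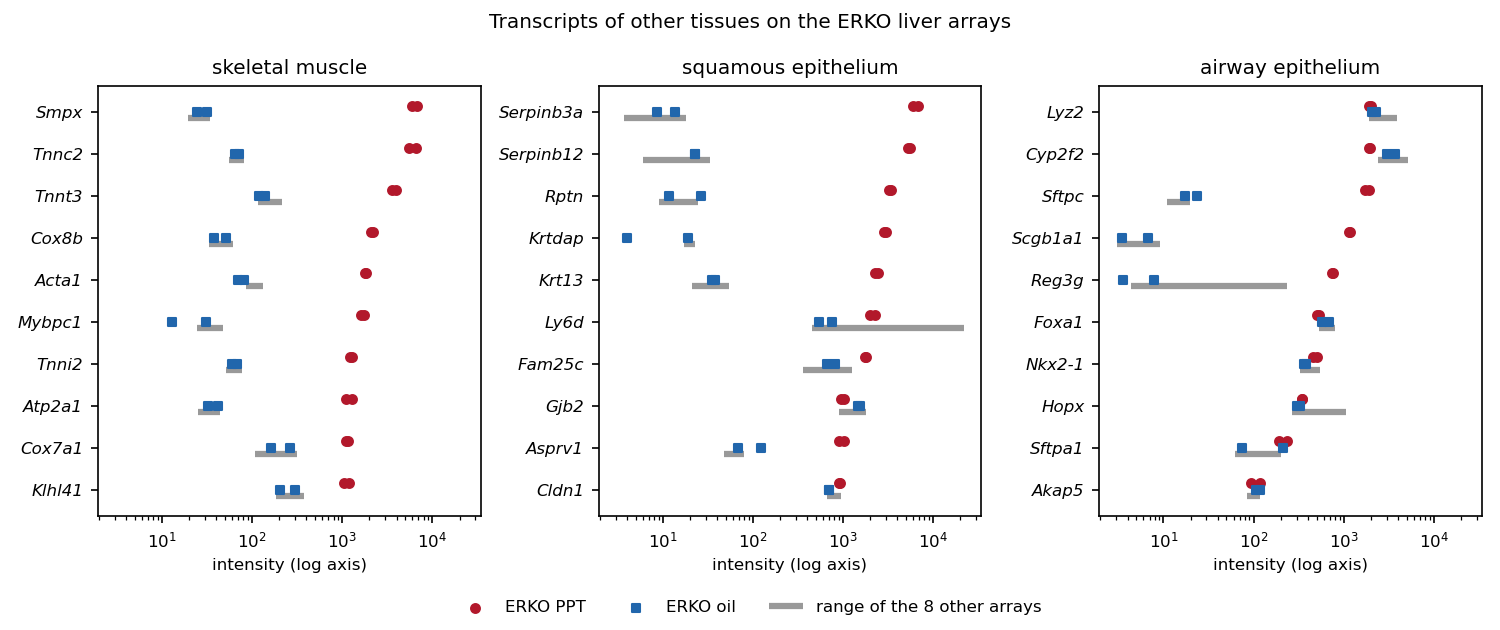
Intensity (log axis) of the 10 members of the skeletal muscle, squamous and airway lists that were brightest in ERKO PPT among those tested, 1 row for each gene; circles are the 2 ERKO PPT arrays, squares the 2 ERKO oil arrays, and the grey bar spans the other 8 arrays. Smpx lay at 6012 and 6689.99 on the ERKO PPT arrays and 24.6 and 31.6 on the ERKO oil arrays, and Serpinb3a at 6018 and 6818 and at 13.5 and 8.54.

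The liver genes below were measured in the same PPT arrays as these transcripts, whose part in the results was not tested. Outside the non-liver lists 942 genes rose and 1318 fell, and of these 106 that rose were dim in oil and 64 that fell were dim in PPT. Over the 30 liver pathway and cell type lists, the share that fell exceeded the background of 9.48% in 24 and the share that rose exceeded 7.44% in 15, and the male-biased list held the largest share that rose, 64.7% of its tested members, against 7.44% of all genes.

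A few more genes had changes as large. Nat8f5, an acetyltransferase family member, gave 637 and 622 in ERKO PPT, against 164 and 157 in ERKO oil (1.87 ± 0.15, adjusted p = 1.5e-05), and Crybb3, a lens crystallin gene, gave 467 and 388 in ERKO PPT, against 109 and 119.9 in ERKO oil (1.76 ± 0.17, adjusted p = 8.67e-05). Serpina4-ps1, a serpin pseudogene, gave 438 and 426 in ERKO PPT, against 47.8 and 13.3 in ERKO oil (at least 7.72-fold, adjusted p = 1.73e-05), with its oil arrays more than 2-fold apart, and Gm94 gave 613 and 514 in ERKO PPT, against 22.7 and 37.5 in ERKO oil (at least 10.05-fold, adjusted p = 6.32e-08). Those 4 rose. Among falls, Cyp2a22, a cytochrome P450, gave 145 and 83.9 in ERKO PPT, against 577 and 405 in ERKO oil (-1.98 ± 0.23, adjusted p = 0.000284), and Eci3, a peroxisomal enoyl-CoA isomerase, gave 92.8 and 52.8 in ERKO PPT, against 449 and 277 in ERKO oil (-2.09 ± 0.25, adjusted p = 0.00037).

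**Figure D2:**
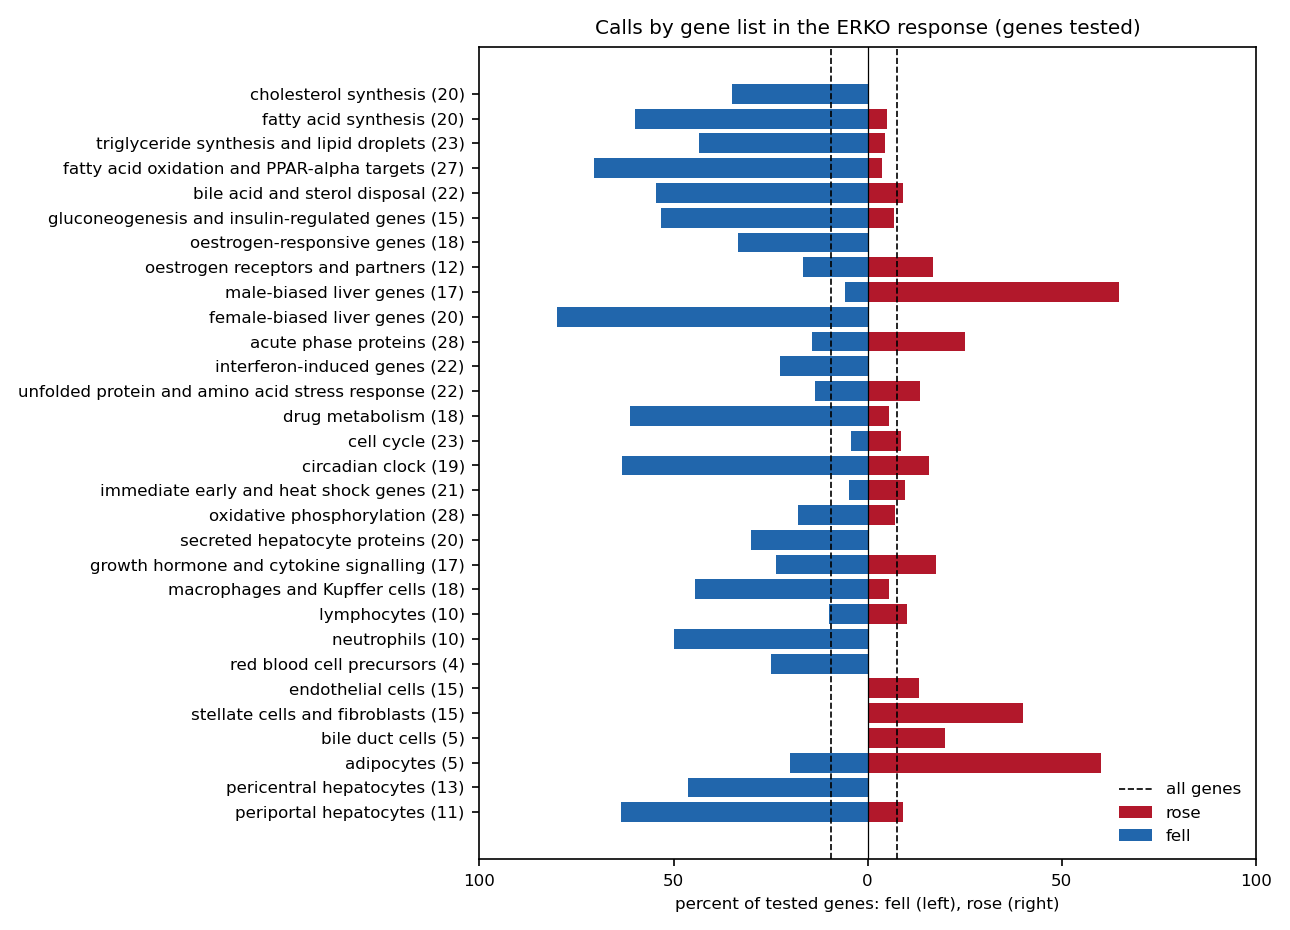
Percent of tested members of each of 30 pathway and cell type lists that rose (right) or fell (left) with PPT in ERKO livers, with dashed lines at the percents over all 13987 genes, 7.44 and 9.48. Female-biased genes and fatty acid oxidation genes reached the longest bars on the falling side and male-biased genes the longest on the rising side. Passing the filter only through the ERKO PPT arrays were 2 adipocyte genes and 1 each of the male-biased, cell cycle and neutrophil genes.

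Sex-biased liver genes moved in opposite directions. Of 17 male-biased genes tested, 11 rose and 1 fell, with a median log2 change of 0.66. Of 20 female-biased genes tested, 0 rose and 16 fell, with a median of -0.94. With no filter on brightness, 16 of the 17 male-biased genes were higher in both PPT arrays and 18 of the 20 female-biased genes were lower in both, and all 37 passed the filter, 1 of them only through the ERKO PPT arrays. Leaving out 1 array gave 11 to 13 risen male-biased genes and 14 to 16 fallen female-biased genes. The median over all tested probe sets was 0.03.

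Among male-biased genes, Slco1a1, a hepatocyte organic anion transporter (10548978), gave 3247 and 3301 in ERKO PPT, against 335 and 298 in ERKO oil (3.31 ± 0.15, adjusted p = 1.28e-07). Cyp4a12a and Cyp4a12b, near-identical fatty acid hydroxylases whose probes may read each other's transcripts, gave 4589 and 4715 in ERKO PPT, against 525 and 479.9 in ERKO oil (3.17 ± 0.17, adjusted p = 7.89e-07) and 4053 and 4221 in ERKO PPT, against 439 and 381 in ERKO oil (3.29 ± 0.12, adjusted p = 2.51e-08). The PPT pair of each gene agreed closely and lay wholly above the oil pair. Elovl3, a fatty acid elongase, gave 1689.8 and 1597 in ERKO PPT, against 205 and 119.8 in ERKO oil (3.26 ± 0.19, adjusted p = 1.57e-06). Hsd3b5, a steroid dehydrogenase of male liver, gave 512 and 486 in ERKO PPT, against 18.2 and 1.11 in ERKO oil (at least 8.92-fold, adjusted p = 2.1e-06). Mup21, of the major urinary proteins, a family of near-identical copies, gave 6386 and 6626 in ERKO PPT, against 3188 and 2091 in ERKO oil (1.33 ± 0.24, adjusted p = 0.00486). Selenbp2 was the member that fell, with 674 and 762 in ERKO PPT, against 1049 and 1026 in ERKO oil (-0.52 ± 0.091, adjusted p = 0.00348).

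Among female-biased genes, A1bg, a secreted plasma glycoprotein (10428921), gave 63.8 and 51.2 in ERKO PPT, against 1986 and 1777 in ERKO oil, the largest fall outside the non-liver lists among genes not dim in PPT (-4.69 ± 0.12, adjusted p = 1.79e-09). Cyp2b13 gave 106 and 106 in ERKO PPT, against 1159.8 and 995 in ERKO oil (-3.16 ± 0.093, adjusted p = 3.92e-09) and Cyp2b9 gave 1167 and 1169.6 in ERKO PPT, against 6101 and 6484 in ERKO oil (-2.41 ± 0.083, adjusted p = 1.48e-08), both steroid and drug hydroxylases of 1 gene family. Sult3a1, a sulfotransferase, gave 242 and 265 in ERKO PPT, against 1478 and 1425 in ERKO oil (-2.45 ± 0.13, adjusted p = 4.46e-07). In all 4 the oil arrays stood several-fold above the PPT arrays with no overlap. Hao2, a peroxisomal hydroxyacid oxidase, gave 31.7 and 36.7 in ERKO PPT, against 383 and 305 in ERKO oil (at least 5.78-fold lower in PPT, adjusted p = 1.54e-07). Sult3a2, outside the list, gave 51.4 and 52.2 in ERKO PPT, against 395 and 284 in ERKO oil (at least 5.68-fold lower, adjusted p = 2.42e-05). Cyp3a16 gave 37.2 and 14.2 in ERKO PPT, against 473 and 176 in ERKO oil (at least 4.89-fold lower, adjusted p = 0.000514), with its oil arrays more than 2-fold apart. Hamp2, a hepcidin, gave 1253 and 1301 in ERKO PPT, against 4641 and 3674 in ERKO oil (-1.68 ± 0.13, adjusted p = 1.91e-05). The 4 female-biased genes that did not pass included Sult1e1, oestrogen sulfotransferase, with 52.1 and 55.1 in ERKO PPT, against 68.8 and 66.4 in ERKO oil (-0.26 ± 0.12, adjusted p = 0.164).

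Genes linked to growth hormone signalling were mixed. Bcl6, a repressor that opposes STAT5 at female-biased genes in mouse liver, rose, with 156 and 167 in ERKO PPT, against 64.7 and 59.05 in ERKO oil (1.19 ± 0.087, adjusted p = 8.39e-06). Igf1, the growth hormone target that carries its effect to other tissues, gave 6587 and 6337 in ERKO PPT, against 6863 and 6443 in ERKO oil (-0.04 ± 0.085, adjusted p = 0.785), and Socs2, a feedback inhibitor of the growth hormone receptor, gave 259 and 265 in ERKO PPT, against 288 and 249 in ERKO oil (-0.03 ± 0.12, adjusted p = 0.891). Neither Igf1 nor Socs2 passed the test, and their PPT and oil ranges overlapped. Of 17 genes of growth hormone and cytokine signalling 3 rose and 4 fell. Without 1 array the rising count was 1 without ERKO PPT 1 and 1 without ERKO PPT 2, and the falling count was 2 without ERKO PPT 1 and 0 without ERKO PPT 2. The promoters of A1bg and Sult3a1 were picked from the large falls because each holds 1 match to the STAT5 motif TTCNNNGAA. The search covered both strands of the 250 bases before the start (RefSeq, GRCm38.p6). Cyp2b13, Cyp3a16, Hao2 and Acot3 also fell steeply and held no match there. The A1bg promoter spans chr15:60921271-60921520 on the minus strand, with its match beginning 84 bases before the start, and that of Sult3a1 spans chr10:33857472-33857721 on the plus strand, with its match at 109. Capitals mark the match, 5′ to 3′.
A1bg: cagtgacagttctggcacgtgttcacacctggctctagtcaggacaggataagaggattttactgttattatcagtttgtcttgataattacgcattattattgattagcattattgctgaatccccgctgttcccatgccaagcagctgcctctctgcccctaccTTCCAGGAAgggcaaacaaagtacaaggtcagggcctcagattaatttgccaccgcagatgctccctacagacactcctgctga
Sult3a1: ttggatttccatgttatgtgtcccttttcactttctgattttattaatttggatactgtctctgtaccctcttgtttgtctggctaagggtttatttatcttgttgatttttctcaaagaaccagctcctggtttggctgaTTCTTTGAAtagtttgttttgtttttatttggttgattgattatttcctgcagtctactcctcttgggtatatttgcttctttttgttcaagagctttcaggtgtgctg
Of 15 sex-biased genes that fell and had a promoter in the table, 3 held the motif (A1bg, Sult3a1 and Hamp2). Of 7 that rose 0 did, and of 8 not called 0 did. The 15 include Sult3a2, which is outside the list. The motif is in 7.02% of all 32851 RefSeq promoters of that length. The oestrogen response element GGTCANNNTGACC was in 0 of these promoters and in 0.0639% of all.

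**Figure D3:**
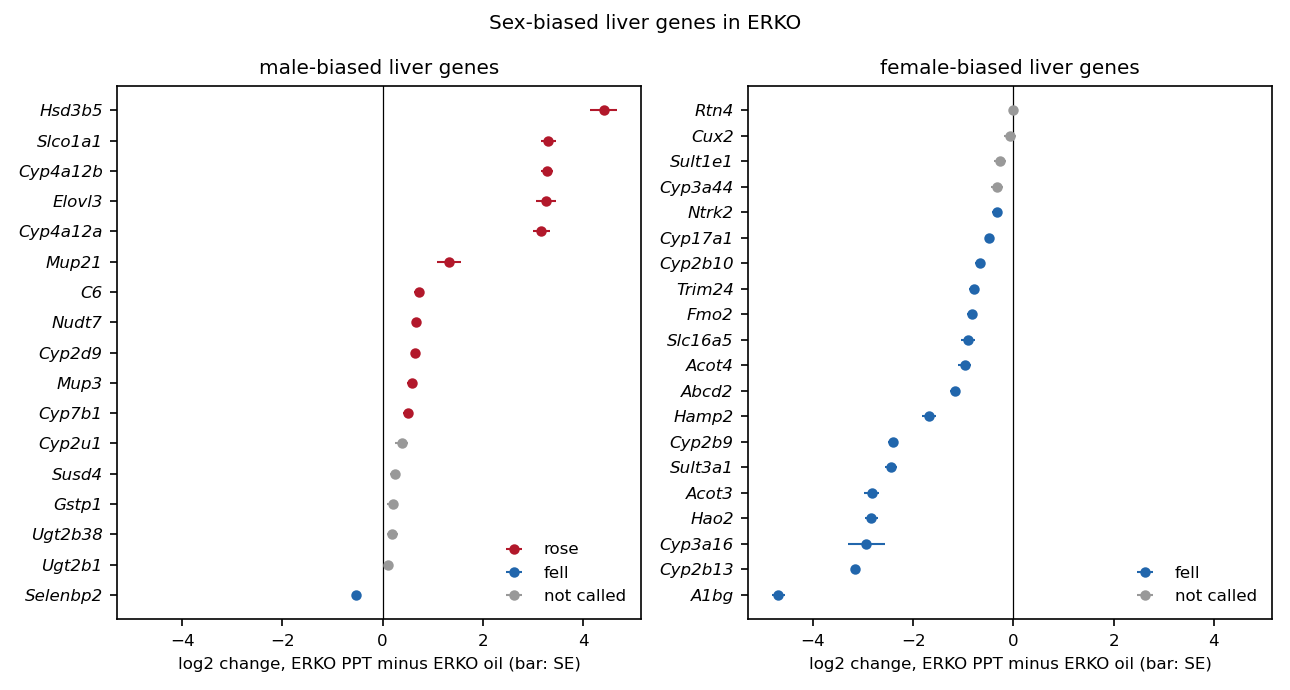
Log2 change (PPT minus oil in ERKO, with SE bars) of the tested male-biased and female-biased liver genes. Red marks genes called as risen, blue those called as fallen and grey those not called. Male-biased genes reach 4.41 for Hsd3b5 and female-biased genes reach -4.69 for A1bg.

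Clock genes moved as opposed arms. Of 19 tested, 3 rose and 12 fell, with a median log2 change of -0.42. The fallen count was 8 without ERKO PPT 2, and 11 or 12 without any other ERKO array. The activators Arntl, with 217 and 205 in ERKO PPT, against 69.5 and 68.8 in ERKO oil (1.41 ± 0.084, adjusted p = 1.55e-06), and Clock, with 1037 and 1028 in ERKO PPT, against 696 and 652 in ERKO oil (0.60 ± 0.088, adjusted p = 0.00129), rose. So did Nfil3, the D-box repressor, with 227 and 195 in ERKO PPT, against 96.3 and 67.4 in ERKO oil (1.23 ± 0.14, adjusted p = 0.000232).

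The fallen genes were mainly those that ARNTL and CLOCK drive or that repress them. Dbp, the D-box activator, gave 202 and 202 in ERKO PPT, against 619.5 and 532 in ERKO oil (-1.44 ± 0.11, adjusted p = 1.58e-05), and Tef, its relative, gave 286 and 237 in ERKO PPT, against 551 and 436 in ERKO oil (-0.87 ± 0.12, adjusted p = 0.000941). Ciart, a repressor of ARNTL and CLOCK, gave 74.7 and 56.4 in ERKO PPT, against 527 and 354 in ERKO oil (-2.47 ± 0.31, adjusted p = 0.00047). In these genes both PPT arrays lay below both oil arrays. Noct, nocturnin, a phosphatase with a strong daily rhythm in liver, gave 96.8 and 97.4 in ERKO PPT, against 539 and 465 in ERKO oil (-2.19 ± 0.10, adjusted p = 2.3e-07). Bhlhe40, an E-box repressor, gave 182 and 159 in ERKO PPT, against 548 and 423 in ERKO oil (-1.42 ± 0.16, adjusted p = 0.000271). Per3 gave 62.9 and 52.5 in ERKO PPT, against 146 and 128 in ERKO oil (-1.06 ± 0.11, adjusted p = 0.000144) and Per2 gave 58.6 and 57.9 in ERKO PPT, against 105 and 100.8 in ERKO oil (-0.68 ± 0.094, adjusted p = 0.001), both period genes. Usp2, a deubiquitinase, was at least 2.32-fold lower (adjusted p = 0.000188). Nr1d1 (REV-ERB alpha), a repressor of Arntl, gave 294 and 264 in ERKO PPT, against 305 and 310.3 in ERKO oil and did not pass (-0.14 ± 0.095, adjusted p = 0.366).

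Promoters of 3 of these genes are shown, picked because each holds a match to a clock element. E-boxes (CACGTG), D-boxes (TTATGTAA) and ROR elements (TAGGTCA) were searched on both strands of the 250 bases before the start (RefSeq, GRCm38.p6), and matches are in capitals, 5′ to 3′. The Ciart promoter, chr3:95882229-95882478 on the minus strand, has 3 E-boxes at 116, 58 and 44 bases before the start. The Per3 promoter, chr4:151044666-151044915 on the minus strand, has 2 D-boxes at 205 and 158 bases. The Nfil3 promoter, chr13:52981040-52981289 on the minus strand, has 1 ROR element, read on the opposite strand, at 12 bases.
Ciart: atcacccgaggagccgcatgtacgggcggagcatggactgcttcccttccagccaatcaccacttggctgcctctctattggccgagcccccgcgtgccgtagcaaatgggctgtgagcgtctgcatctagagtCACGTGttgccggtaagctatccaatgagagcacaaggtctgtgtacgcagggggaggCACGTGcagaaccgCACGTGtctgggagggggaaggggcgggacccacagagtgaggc
Per3: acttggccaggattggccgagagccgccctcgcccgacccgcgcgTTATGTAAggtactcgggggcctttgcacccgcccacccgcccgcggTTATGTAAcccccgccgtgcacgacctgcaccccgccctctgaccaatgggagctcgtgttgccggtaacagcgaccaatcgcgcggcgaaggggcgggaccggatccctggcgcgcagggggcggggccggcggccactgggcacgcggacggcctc
Nfil3: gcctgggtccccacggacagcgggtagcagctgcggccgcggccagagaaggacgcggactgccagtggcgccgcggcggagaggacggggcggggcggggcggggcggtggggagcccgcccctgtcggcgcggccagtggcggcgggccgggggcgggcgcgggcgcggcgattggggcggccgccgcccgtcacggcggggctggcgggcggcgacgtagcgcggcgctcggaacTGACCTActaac
E-boxes were in 4 of the 10 fallen clock genes with a promoter in the table, against 6.02% of all promoters. They were in 0 of the 3 that rose and in 1 of the 4 not called. Dbp, Noct, Usp2, Hlf, Nr1d2 and Per3 fell and held no E-box in that window. D-boxes were in 1 of the 10 (0.819% of all), and a ROR element was in 1 of the 3 that rose and 0 of the 10 that fell (2.23% of all). In the promoters printed here no match lay within another motif's match.

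**Figure D4:**
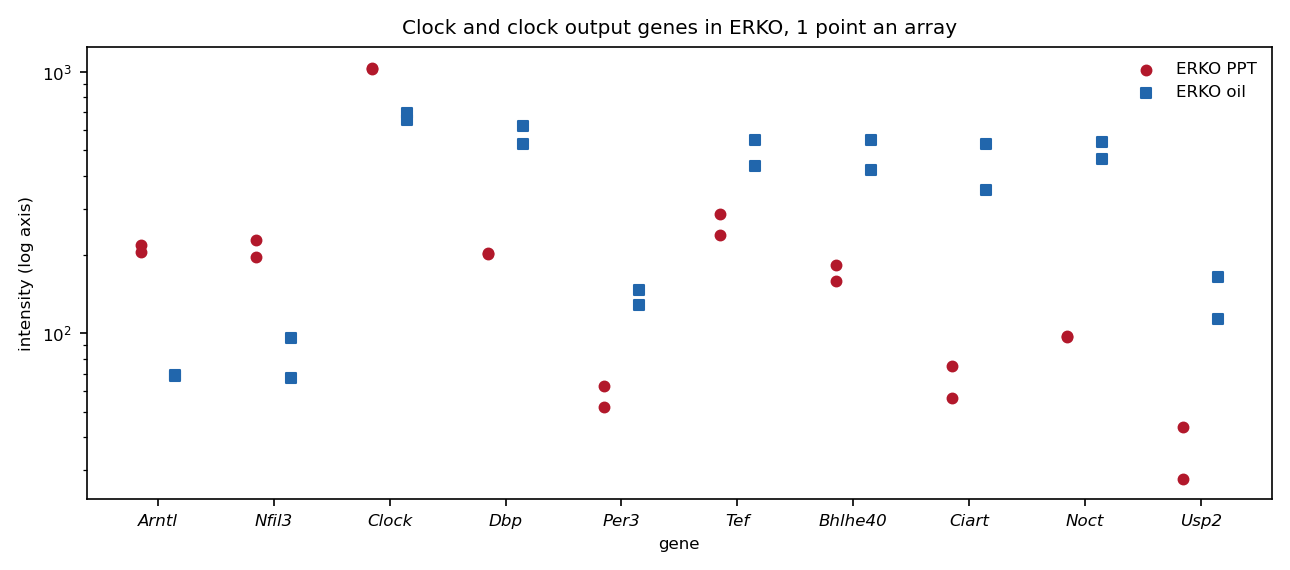
Intensity on each of the 4 ERKO arrays for 10 clock and clock output genes, log axis, with PPT left of oil. In ERKO the Arntl, Nfil3 and Clock points of PPT lie above those of oil, and for the other 7 genes they lie below.

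Lipogenic genes fell. Of 20 genes of fatty acid synthesis tested, 12 fell and 1 rose (3 without ERKO oil 1), with a median log2 change of -0.42, and 9 to 14 fell when 1 array was left out. Srebf1, the transcription factor that drives the pathway, gave 245 and 212 in ERKO PPT, against 503 and 406 in ERKO oil (-0.94 ± 0.12, adjusted p = 0.000554), and Fasn, fatty acid synthase, gave 303 and 286 in ERKO PPT, against 651 and 558 in ERKO oil (-0.99 ± 0.099, adjusted p = 0.000101). Pklr, liver pyruvate kinase, gave 340.1 and 344 in ERKO PPT, against 762 and 674 in ERKO oil (-1.03 ± 0.090, adjusted p = 3.55e-05), and Mid1ip1, an activator of acetyl-CoA carboxylase, gave 289 and 314 in ERKO PPT, against 532 and 536 in ERKO oil (-0.80 ± 0.090, adjusted p = 0.000244). For all 4, both PPT arrays were below both oil arrays. Elovl6, an elongase, gave 936 and 946 in ERKO PPT, against 1392 and 1532 in ERKO oil (-0.63 ± 0.093, adjusted p = 0.00153) and Fads2, a desaturase, gave 1536 and 1534 in ERKO PPT, against 2458 and 2303 in ERKO oil (-0.63 ± 0.081, adjusted p = 0.000635). A pair of smaller falls lost the call when 1 array was left out. Scd1, stearoyl-CoA desaturase, had a log2 change of -0.38 ± 0.095 (adjusted p = 0.0193), which was -0.33 without ERKO PPT 1 and -0.44 without ERKO PPT 2 and was not called in either fit. Acaca, acetyl-CoA carboxylase, had -0.46 ± 0.093 (adjusted p = 0.00772), and -0.45 without its call when ERKO PPT 2 was left out. Thrsp, a lipogenic regulator, gave 4178 and 4406 in ERKO PPT, against 5722 and 4902 in ERKO oil and did not pass (-0.30 ± 0.097, adjusted p = 0.0547). The member that rose was Elovl3, described with the male-biased genes.

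Of 20 cholesterol synthesis genes 7 fell and 0 rose, with a median of -0.21, and the fallen count was 2 without ERKO PPT 1, 1 without ERKO PPT 2, 4 without ERKO oil 1 and 12 without ERKO oil 2. Fdft1, squalene synthase, gave 1727 and 1637 in ERKO PPT, against 2688 and 2480.4 in ERKO oil (-0.61 ± 0.087, adjusted p = 0.00113). Of 23 genes of triglyceride synthesis and lipid droplets 10 fell and 1 rose (2 without ERKO oil 1), and the fallen count was 6 without ERKO PPT 2. Lpin2, a phosphatidate phosphatase, gave 874 and 849.96 in ERKO PPT, against 1337 and 1218 in ERKO oil (-0.56 ± 0.085, adjusted p = 0.00172), and Dgat2, which makes triglyceride, gave 965 and 1122 in ERKO PPT, against 1676 and 1481 in ERKO oil (-0.59 ± 0.099, adjusted p = 0.0029). Plin2, a lipid droplet coat protein, gave 2394 and 2348 in ERKO PPT, against 3369 and 3198 in ERKO oil (-0.47 ± 0.080, adjusted p = 0.00325). The member that rose was Lpl, lipoprotein lipase, an enzyme of muscle and fat, with 405 and 391 in ERKO PPT, against 158 and 78.6 in ERKO oil (1.69 ± 0.22, adjusted p = 0.00059).

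Fatty acid oxidation genes and targets of PPAR-alpha, the fasting lipid sensor, fell widely: 19 of 27 fell and 1 rose, with a median of -0.45. The fallen count was 12 without ERKO PPT 1 and 10 without ERKO PPT 2. Ehhadh, the peroxisomal bifunctional enzyme, gave 831 and 848 in ERKO PPT, against 1835 and 1635 in ERKO oil (-1.03 ± 0.093, adjusted p = 4.93e-05), and Acaa1b, a peroxisomal thiolase, gave 1078 and 985 in ERKO PPT, against 2308 and 1861 in ERKO oil (-0.997 ± 0.11, adjusted p = 0.00026). Cyp4a14, a fatty acid hydroxylase, gave 3159.7 and 3191 in ERKO PPT, against 5205 and 4899.8 in ERKO oil (-0.67 ± 0.081, adjusted p = 0.000423). The PPT arrays agreed and lay below both oil arrays in each. Acot3, an acyl-CoA thioesterase also on the female-biased list, gave 44.4 and 42.5 in ERKO PPT, against 468 and 354 in ERKO oil (at least 6.89-fold lower in PPT, adjusted p = 6.25e-07). Cpt1a, which admits fatty acids to mitochondria, gave 583 and 559 in ERKO PPT, against 984 and 913 in ERKO oil (-0.72 ± 0.089, adjusted p = 0.000469), and Acadm, an acyl-CoA dehydrogenase, gave 3541 and 3374 in ERKO PPT, against 5195 and 4704 in ERKO oil (-0.51 ± 0.089, adjusted p = 0.00349). The member that rose, Pdk4, a pyruvate dehydrogenase kinase abundant in muscle, gave 282 and 282 in ERKO PPT, against 122 and 52.1 in ERKO oil (1.62 ± 0.25, adjusted p = 0.00207), with its oil arrays more than 2-fold apart.

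Bile acid synthesis and export genes fell in 12 of 22 cases and rose in 2 (4 without ERKO oil 1), with a median of -0.49 and 11 to 14 falling when 1 array was left out. Cyp7a1, which catalyses the slowest step in making bile acids (10511375), gave 1905 and 1865 in ERKO PPT, against 4177 and 3922 in ERKO oil (-1.10 ± 0.087, adjusted p = 1.69e-05). Cyp8b1, which makes cholic acid, gave 489 and 473 in ERKO PPT, against 418 and 354 in ERKO oil and did not pass (0.31 ± 0.10, adjusted p = 0.0608). Slc27a5, a bile acid ligase, gave 2522 and 2427 in ERKO PPT, against 4594 and 4093 in ERKO oil (-0.81 ± 0.087, adjusted p = 0.000183). The fall thus took in synthesis, and uptake and export as well: Slc10a1, the uptake carrier NTCP, gave 4511 and 4392 in ERKO PPT, against 7747 and 7093 in ERKO oil (-0.73 ± 0.087, adjusted p = 0.000352), and Abcb11, the bile salt export pump, gave 3161 and 2988 in ERKO PPT, against 4764 and 4753 in ERKO oil (-0.63 ± 0.081, adjusted p = 0.000634). The risen members were the male-biased Slco1a1 and Cyp7b1, of which Cyp7b1 is an oxysterol hydroxylase with 1259 and 1216 in ERKO PPT, against 933 and 804 in ERKO oil (0.51 ± 0.098, adjusted p = 0.00634).

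Of 15 gluconeogenic and insulin-regulated genes 8 fell and 1 rose (2 without ERKO oil 2), the fallen count being 5 without ERKO PPT 1 and 5 without ERKO PPT 2. Slc2a2, the hepatocyte glucose transporter, gave 1089 and 939 in ERKO PPT, against 2530.1 and 2398 in ERKO oil (-1.27 ± 0.10, adjusted p = 1.68e-05), Gckr, the glucokinase regulator, gave 1381 and 1259 in ERKO PPT, against 2289.98 and 2047 in ERKO oil (-0.71 ± 0.092, adjusted p = 0.000632), and Pck1, which commits carbon to glucose, gave 1841 and 1838 in ERKO PPT, against 3037 and 2513 in ERKO oil (-0.58 ± 0.10, adjusted p = 0.00385). Igfbp1, a binding protein that insulin represses, was the member that rose, with 201 and 206 in ERKO PPT, against 107 and 74.5 in ERKO oil (1.06 ± 0.13, adjusted p = 0.000478). Of 18 drug metabolism genes 11 fell and 1 rose, with a median of -0.49 and 10 to 13 falling when 1 array was left out. Cyp3a13 gave 1374 and 1389 in ERKO PPT, against 3763 and 3473 in ERKO oil (-1.38 ± 0.092, adjusted p = 4.15e-06), and Ephx1, epoxide hydrolase, gave 1012 and 964 in ERKO PPT, against 2103 and 1955 in ERKO oil (-1.03 ± 0.084, adjusted p = 2.29e-05). Gstt3, a glutathione transferase, gave 282 and 325 in ERKO PPT, against 709.8 and 597 in ERKO oil (-1.07 ± 0.12, adjusted p = 0.000188). The xenobiotic receptor Nr1i3 (CAR), which drives many of these genes, fell too, with 679 and 643 in ERKO PPT, against 1401 and 1261 in ERKO oil (-0.99 ± 0.091, adjusted p = 5.48e-05). Alas1, the first enzyme of haem synthesis, was outside the lists and gave 667 and 685 in ERKO PPT, against 2498 and 2388 in ERKO oil (-1.83 ± 0.088, adjusted p = 2.3e-07). Ces1g, a lipid esterase, gave 1021 and 946 in ERKO PPT, against 3549.7 and 3165 in ERKO oil (-1.75 ± 0.091, adjusted p = 4.71e-07), and Slc22a26 and Slc22a27, neighbouring organic anion transporters of similar sequence, had log2 changes of -2.39 ± 0.090 and -2.24 ± 0.085.

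Genes that oestrogen is known to regulate were called in ERKO as well. Of 18 tested, 6 fell and 0 rose, while 3 fell without ERKO PPT 2 and 2 rose without ERKO oil 1. Serpina6, which carries glucocorticoids in plasma, gave 2217 and 2289 in ERKO PPT, against 6537 and 5835 in ERKO oil (-1.45 ± 0.094, adjusted p = 3.37e-06), and Agt, angiotensinogen, gave 1138 and 1151 in ERKO PPT, against 2460.2 and 2301 in ERKO oil (-1.05 ± 0.086, adjusted p = 2.39e-05). Both pairs of arrays were tight and did not overlap. Ctsd, cathepsin D, gave 1063 and 1069 in ERKO PPT, against 1565 and 1474 in ERKO oil (-0.50 ± 0.082, adjusted p = 0.00257). Cyp17a1, a steroid hydroxylase, gave 704 and 678 in ERKO PPT, against 1045 and 902 in ERKO oil (-0.48 ± 0.095, adjusted p = 0.00712), with -0.45 and no call without ERKO PPT 2. Lifr, the leukaemia inhibitory factor receptor, gave 1467 and 1468 in ERKO PPT, against 1618 and 1611 in ERKO oil and did not pass (-0.14 ± 0.083, adjusted p = 0.293). Of 12 genes for oestrogen receptors and their partners 2 rose and 2 fell. The risen count was 1 without ERKO PPT 1, 1 without ERKO PPT 2 and 1 without ERKO oil 2, and the fallen count was 1 without ERKO PPT 1, 1 without ERKO PPT 2 and 1 without ERKO oil 1. The clearest rise was Cav1, caveolin, a membrane scaffold also abundant in fat, muscle and endothelium, with 204 and 212 in ERKO PPT, against 83.4 and 54.9 in ERKO oil (1.41 ± 0.14, adjusted p = 0.000124).

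Acute phase genes gave no single direction. Of 28 tested, 7 rose and 4 fell, and the risen count was 4 without ERKO PPT 1, 3 without ERKO PPT 2 and 15 without ERKO oil 1. Saa3, a serum amyloid A made by liver and by other tissues (10563597), gave 10862 and 11592 in ERKO PPT, against 773 and 712 in ERKO oil, the largest rise outside the non-liver lists among genes bright in both groups (3.89 ± 0.092, adjusted p = 1.11e-09). Lcn2, an iron-sequestering protein, gave 9865 and 10363 in ERKO PPT, against 5499 and 5025 in ERKO oil (0.94 ± 0.089, adjusted p = 7.1e-05). Orm3, an orosomucoid, fell, with 1005 and 986 in ERKO PPT, against 2107 and 1717 in ERKO oil (-0.92 ± 0.15, adjusted p = 0.0025), as did Lbp, which binds bacterial lipopolysaccharide, with 689 and 668 in ERKO PPT, against 1135 and 1117 in ERKO oil (-0.72 ± 0.081, adjusted p = 0.000245). A2m, a protease inhibitor of plasma, gave 1681 and 1577 in ERKO PPT, against 241 and 329 in ERKO oil (2.46 ± 0.13, adjusted p = 4.18e-07), and Nucb2, a calcium-binding protein, gave 693 and 629 in ERKO PPT, against 198 and 139.7 in ERKO oil (1.89 ± 0.13, adjusted p = 6.68e-06). Of 20 secreted hepatocyte proteins 6 fell and 0 rose, while 11 fell without ERKO oil 2 and 6 rose without ERKO oil 1. Fetub, a fetuin, was the largest of these falls, with 1140.4 and 1290.4 in ERKO PPT, against 2485 and 2299 in ERKO oil (-0.97 ± 0.093, adjusted p = 7.56e-05).

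Interferon-induced genes fell in 5 of 22 cases and rose in 0 (1 without ERKO oil 1). The fallen count was 2 without ERKO PPT 1, 0 without ERKO PPT 2 and 13 without ERKO oil 2. Of 22 genes that respond to unfolded proteins or amino acid stress 3 rose (1 without ERKO PPT 1 and 1 without ERKO PPT 2) and 3 fell (1 without ERKO PPT 1, 1 without ERKO PPT 2 and 7 without ERKO oil 2). Herpud1, which clears misfolded proteins, gave 856 and 843 in ERKO PPT, against 1898 and 1543 in ERKO oil (-0.997 ± 0.11, adjusted p = 0.00016), and Sdf2l1, a chaperone cofactor, gave 1017 and 1015 in ERKO PPT, against 553 and 466 in ERKO oil (0.98 ± 0.097, adjusted p = 9.22e-05). Those members of 1 pathway moved apart. Of 23 cell cycle genes 2 rose (1 without ERKO PPT 2 and 8 without ERKO oil 1) and 1 fell (0 without ERKO PPT 1, 0 without ERKO PPT 2 and 0 without ERKO oil 1). Mcm6, of the replication helicase, gave 219.9 and 167 in ERKO PPT, against 105 and 65.2 in ERKO oil (1.06 ± 0.19, adjusted p = 0.00405). Of 21 immediate early and heat shock genes 2 rose (1 without ERKO PPT 1 and 1 without ERKO PPT 2) and 1 fell (0 without ERKO PPT 2 and 4 without ERKO oil 2). Of 28 oxidative phosphorylation genes 2 rose (0 without ERKO PPT 1, 0 without ERKO PPT 2 and 9 without ERKO oil 1) and 5 fell (1 without ERKO PPT 1, 1 without ERKO PPT 2 and 9 without ERKO oil 2), the clearest being Sdha of complex II, with 2369 and 2154 in ERKO PPT, against 3888 and 3615 in ERKO oil (-0.73 ± 0.087, adjusted p = 0.000373). The risen shares were 8.7% for cell cycle and 9.52% for immediate early and heat shock genes, beside 7.44% of all genes.

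Cell type lists were read the same way. Macrophage and Kupffer cell genes fell in 8 of 18 cases and rose in 1. The fallen count was 2 without ERKO PPT 1, 2 without ERKO PPT 2 and 4 without ERKO oil 1, and the risen one was 0 without ERKO PPT 1, 0 without ERKO PPT 2 and 2 without ERKO oil 1. Marco, a scavenger receptor of Kupffer cells, gave 49 and 46.3 in ERKO PPT, against 134 and 88.3 in ERKO oil (at least 1.84-fold lower in PPT, adjusted p = 0.003), and Cd5l, a macrophage protein of plasma, gave 1553 and 1560.3 in ERKO PPT, against 2328 and 2096 in ERKO oil (-0.50 ± 0.085, adjusted p = 0.00313). Neutrophil genes fell in 5 of 10 cases (2 without ERKO PPT 1, 2 without ERKO PPT 2 and 3 without ERKO oil 1), with Ngp, a granule protein, at 43.97 and 33.1 in ERKO PPT, against 185 and 96.7 in ERKO oil (at least 2.27-fold lower, adjusted p = 0.00469). Prtn3, another granule protein, gave 138 and 133 in ERKO PPT, against 209 and 127 in ERKO oil and did not pass (-0.24 ± 0.19, adjusted p = 0.439). Lymphocyte genes were called in 2 of 10 cases, 1 in each direction, and each call was lost in 8 or more of the 12 fits that left out 1 array: Cd3g of the T cell receptor had -0.30 ± 0.088 and Gzma, a granzyme, 0.45 ± 0.13. Of 4 genes of red blood cell precursors 1 fell, Tfrc, the transferrin receptor, with 612 and 613 in ERKO PPT, against 1289 and 1197 in ERKO oil (-1.001 ± 0.094, adjusted p = 6.71e-05).

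Stromal lists rose in part. Of 15 stellate cell and fibroblast genes 6 rose and 0 fell (2 without ERKO oil 2), and the risen count was 3 without ERKO PPT 1 and 3 without ERKO PPT 2. They included Des, and Rgs5, of pericytes and stellate cells, with 992 and 1016 in ERKO PPT, against 633 and 597 in ERKO oil (0.69 ± 0.093, adjusted p = 0.000823), and Vim, vimentin, with 541 and 511 in ERKO PPT, against 393 and 320.2 in ERKO oil (0.55 ± 0.10, adjusted p = 0.00592). Of 15 endothelial genes 2 rose and 0 fell (1 without ERKO oil 2), and the risen count was 0 without ERKO PPT 1, 0 without ERKO PPT 2, 5 without ERKO oil 1 and 0 without ERKO oil 2. Of 5 adipocyte genes 3 rose and 1 fell (0 without ERKO PPT 1, 0 without ERKO PPT 2 and 0 without ERKO oil 1). Of those 5 adipocyte genes, 2 passed the filter only through the ERKO PPT arrays. With no filter, 4 of 9 matched were higher in both PPT arrays than in both oil arrays (44.4%, against 23.1% of all genes). In both PPT arrays 1 of the 9 was lower (11.1%, against 21.1%). Fabp4, the adipocyte fatty acid carrier, gave 1123 and 1066 in ERKO PPT, against 263 and 158 in ERKO oil (2.33 ± 0.18, adjusted p = 1.36e-05), and Adipoq, adiponectin, gave 64.9 and 84.5 in ERKO PPT, against 31.01 and 17.9 in ERKO oil (at least 1.32-fold, adjusted p = 0.00168). The fall was Car3, also a hepatocyte gene, with 7212 and 7497 in ERKO PPT, against 11037 and 8509 in ERKO oil (-0.40 ± 0.11, adjusted p = 0.0366), a call lost in 11 of the 12 fits without 1 array. Of 5 bile duct genes 1 rose (0 without ERKO PPT 2). Of 13 pericentral hepatocyte genes 6 fell and 0 rose, and of 11 periportal ones 7 fell and 1 rose, so both zones of the lobule held genes that fell. Asl, of the urea cycle and periportal, gave 1541 and 1453 in ERKO PPT, against 3033 and 2685 in ERKO oil (-0.92 ± 0.091, adjusted p = 9.23e-05), and Slc1a2, a pericentral glutamate transporter, gave 759 and 677 in ERKO PPT, against 1211 and 1192 in ERKO oil (-0.73 ± 0.087, adjusted p = 0.000356).

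The same test in the other genotypes called 2132 genes higher (15.2%) and 2499 lower (17.9%) in wild type, and 353 higher (2.52%) and 335 lower (2.4%) in MOER. The ERKO response was above the wild type one for 1709 genes (12.2%) and below it for 1601 (11.4%), and above the MOER one for 711 (5.08%) and below it for 914 (6.53%), by the interaction terms of the same fit. Both differences rest on the same 4 ERKO arrays. The MOER difference also rests on the MOER oil arrays with the pancreas transcripts given above, whose part was not tested. Their counts were 4266 and 2193 probe sets. Without ERKO oil 1 the counts were 6735 and 4802, and without ERKO PPT 2 they were 2987 and 1078. The MOER difference was 3407 without ERKO oil 2 and 1271 without ERKO PPT 1, and 1167 to 1309 without 1 of the MOER arrays.

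The responses of bile acid enzymes in ERKO differed from those in wild type. The Cyp7a1 log2 change was -1.10 in ERKO, against -6.11 in wild type, a difference of 5.01 ± 0.12 (SE, adjusted p = 6.16e-09). It was -1.20 in MOER, and the ERKO minus MOER difference was 0.10 ± 0.12 (adjusted p = 0.653). For Cyp8b1 the changes were 0.31 in ERKO and -4.24 in wild type (4.55 ± 0.15, adjusted p = 1.87e-08). Of the lipogenic genes, Scd1 changed by -0.38 in ERKO and -1.74 in wild type (1.36 ± 0.13, adjusted p = 4.41e-05). For Srebf1, Fasn and Acaca no difference from wild type passed: 0.44 ± 0.17 (adjusted p = 0.093), -0.41 ± 0.14 (adjusted p = 0.0622) and 0.12 ± 0.13 (adjusted p = 0.57). The same 3 differed from MOER by 0.10 ± 0.17 (adjusted p = 0.776), 0.13 ± 0.14 (adjusted p = 0.604) and -0.08 ± 0.13 (adjusted p = 0.751), and none passed, which does not show that the responses were alike. Of the 20 cholesterol synthesis genes, 7 fell in ERKO and 19 in wild type, and the ERKO change was above that of wild type for 17 and below it for 1. Over all genes, 9.48% fell in ERKO and 17.9% in wild type, and the ERKO change was above for 12.2% and below for 11.4%.

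Some transcripts that responded in wild type did not pass in ERKO. Slc34a2, a phosphate transporter, gave 29.2 and 25.6 in ERKO PPT, against 21.8 and 23.5 in ERKO oil (log2 change 0.17 ± 0.15, adjusted p = 0.488) and differed from the wild type change of 7.72 by -7.56 ± 0.21 (adjusted p = 7.48e-09). Akr1c18, a progesterone-inactivating reductase, gave 54.9 and 72.4 in ERKO PPT, against 59.1 and 48.2 in ERKO oil (0.19 ± 0.13, adjusted p = 0.356), against 5.17 in wild type, a difference of -4.98 ± 0.18 (adjusted p = 3.75e-08). Slc34a2 was dim in both ERKO groups and Akr1c18 lay near the 40th percentile, so the sizes depend on the added 16. For others the direction was turned. Ehhadh changed by -1.03 in ERKO and 2.40 in wild type (-3.44 ± 0.13, adjusted p = 4.55e-08). Cyp17a1 changed by -0.48 in ERKO, 2.66 in wild type and 3.42 in MOER, differences of -3.14 ± 0.13 (adjusted p = 9.62e-08) and -3.90 ± 0.13 (adjusted p = 2.84e-08). Marco changed by -0.98 in ERKO and 2.72 in wild type (-3.70 ± 0.23, adjusted p = 1.5e-06), and Herpud1 by -0.997 in ERKO and 1.18 in wild type (-2.18 ± 0.15, adjusted p = 2.77e-06). Of 22 stress response genes, 3 rose in ERKO and 20 in wild type, and 17 had an ERKO change below that of wild type. Over all genes, 7.44% rose in ERKO and 15.2% in wild type, and 11.4% had an ERKO change below that of wild type.

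The sex-biased genes of ERKO also stood apart by these tests. For 11 of the 17 male-biased genes the ERKO change was above that of wild type and for 1 below, and against MOER it was above for 9 and below for 1. Slco1a1 changed by 3.31 in ERKO, 0.61 in wild type and -2.29 in MOER, differences of 2.70 ± 0.21 (adjusted p = 7.32e-06) and 5.60 ± 0.21 (adjusted p = 4.79e-08). Elovl3 changed by 3.26 in ERKO, -3.05 in wild type and -1.59 in MOER, differences of 6.31 ± 0.27 (adjusted p = 1.01e-07) and 4.85 ± 0.27 (adjusted p = 1.25e-06). Both genes rose in ERKO and fell in MOER. Of the 20 female-biased genes, the ERKO change was below that of wild type for 7 and above it for 5, and below that of MOER for 10 and above it for 2. Over all genes the shares were 11.4% below and 12.2% above wild type, and 6.53% below and 5.08% above MOER. A1bg changed by -4.69 in ERKO, 1.38 in wild type and -2.52 in MOER, differences of -6.07 ± 0.18 (adjusted p = 9.4e-09) and -2.17 ± 0.18 (adjusted p = 2.27e-05). Sult3a1 changed by -2.45 in ERKO and 0.82 in wild type (-3.27 ± 0.18, adjusted p = 5.77e-07). Female-biased genes fell in the other genotypes too, so that 16 fell in ERKO, 14 in wild type and 12 in MOER, beside 9.48%, 17.9% and 2.4% of all genes.

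Clock genes differed from both genotypes in part. Arntl changed by 1.41 in ERKO, -0.46 in wild type and -0.78 in MOER, differences of 1.88 ± 0.12 (adjusted p = 1.56e-06) and 2.19 ± 0.12 (adjusted p = 8.68e-07). Noct changed by -2.19 in ERKO and 0.40 in wild type (-2.59 ± 0.15, adjusted p = 8.1e-07). Dbp changed by -1.44 in ERKO, -1.04 in wild type and 1.02 in MOER. Its difference from MOER was -2.46 ± 0.16 (adjusted p = 3.78e-06) and that from wild type did not pass, -0.40 ± 0.16 (adjusted p = 0.102). Over the 19 clock genes the ERKO change was above that of wild type for 3 and below it for 4, and above that of MOER for 2 and below it for 12. Over all genes those shares were 12.2% and 11.4%, and 5.08% and 6.53%. Clock genes also fell in wild type, where 4 rose and 9 fell, while in MOER 5 rose and 2 fell. The matching shares of all genes were 15.2% and 17.9% in wild type, and 2.52% and 2.4% in MOER. Cyp3a13 changed by -1.38 in ERKO and 1.72 in MOER, a difference outside the clock (-3.10 ± 0.13, adjusted p = 1.17e-07).

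Of the transcripts from other tissues, Krt4 changed by 3.60 in ERKO and 6.95 in wild type, a difference of -3.35 ± 0.36 (adjusted p = 8.74e-05), with 451 and 435 in ERKO PPT and 3308 and 3210.1 in wild type PPT. Saa3 changed by 3.89 in ERKO, 0.97 in wild type and 1.20 in MOER, differences of 2.92 ± 0.13 (adjusted p = 1.15e-07) and 2.69 ± 0.13 (adjusted p = 3.55e-07). Reg3b changed by 6.51 in ERKO and 3.66 in MOER (2.85 ± 0.22, adjusted p = 1.51e-05), with both oil groups dim, so the sizes depend on the added 16. Of the 79 muscle genes tested, 60 rose and 0 fell in ERKO, 8 rose and 5 fell in wild type, and 1 rose and 0 fell in MOER. Over all genes, 7.44% rose and 9.48% fell in ERKO, 15.2% and 17.9% in wild type, and 2.52% and 2.4% in MOER. The 79 include 35 that passed the filter only through the ERKO PPT arrays, so the genotypes are not compared evenly.

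**Figure D5:**
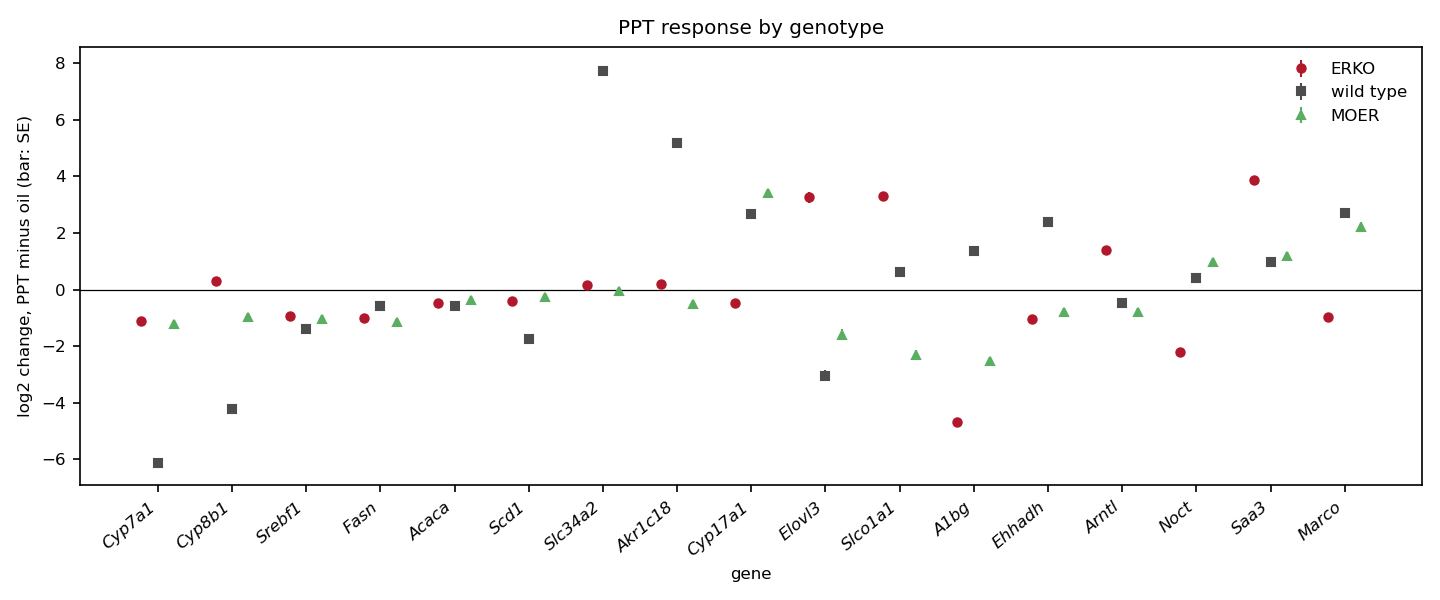
Log2 change of PPT over oil for 17 genes in ERKO, wild type and MOER livers, with SE bars, many shorter than the symbol. Cyp7a1 lies at -1.10 in ERKO and -6.11 in wild type, and Slco1a1 at 3.31 in ERKO and -2.29 in MOER.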

How the data were processed

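Whole-liver RNA was hybridised to Affymetrix Mouse Gene 1.0 ST arrays, 12 in all. The authors deposited 1 linear intensity per probe set and array; the summary of probes and the array normalisation are not given in the sources used here. Array medians were close, so the deposited intensity values were not normalised again. Per the labels, the authors analysed the arrays with Cyber-T at 99.99% confidence and at least 2-fold.

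Groups came from the sample titles. Values were transformed as log2(intensity + 16), and the probe sets that 2 or more arrays read above their own 40th percentile were tested with limma 3.58.1 (R 4.3.3): 1 fit of 6 group means, eBayes without trend, two-sided, Benjamini-Hochberg adjustment over 19119 probe sets, called at an adjusted p under 0.05. Residual degrees of freedom were 6, and 10.5 after moderation. Differences between genotypes are interaction terms of that fit. A gene is a single symbol in the platform annotation, given by its brightest probe set: 21780 probe sets had 1 symbol, 1605 several and 5430 none. Among called genes, 2 had probe sets that moved in opposite directions.

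The 35 gene lists (20 pathway, 10 cell type, 5 non-liver) hold 938 symbols, 861 of them matched. Members and lists were chosen with earlier results of these data known. Named genes are, outside the non-liver lists, the 12 largest called changes in each direction with no overlap and neither group dim, the 6 largest where 1 group was dim, up to 4 called genes of smallest p per list, fixed anchors such as Cyp7a1, Esr1 and Alb, and the 10 brightest members of the muscle, squamous and airway lists; the text gives those a result turns on. Genes named beyond that rule, such as Myh1, Clock, Cpt1a and Nr1d1, were chosen after their values were seen. The code of the fit was run on simulated data: of 19119 probe sets, it recovered 90 of 100 with a log2 change of 1 and 100 of 100 with a change of 2, and called 14 of 18919 unchanged ones. The simulated noise was independent and normal, with 1 spread per probe set shared by all groups. It lacked the wider spread of the ERKO oil arrays, so these counts give no error rate for the real calls. Alternatives were other added constants, filters, scalings, variance models, array weights, a replicate block, a Cyber-T-style test, the ERKO arrays alone, and leaving out each array. Promoter sequences are from RefSeq tables of GRCm38.p6.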

Additional observations from a re-analysis of the deposited data

Results flagged for a closer look

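Each value here is a log2 difference between the PPT response in ERKO and that in another genotype, brought up because the interaction term of the limma fit passed at a Benjamini-Hochberg adjusted p under 0.05. Of 34 such differences given in the text, 26 passed and 8 did not. The ERKO arrays are shared by both sets of differences, so the sets are not independent.

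Against wild type, ERKO responses were higher for Cyp7a1 (5.01), Cyp8b1 (4.55), Scd1 (1.36), Elovl3 (6.31), Slco1a1 (2.70), Arntl (1.88) and Saa3 (2.92). They were lower for Slc34a2 (-7.56), A1bg (-6.07), Akr1c18 (-4.98), Marco (-3.70), Ehhadh (-3.44), Krt4 (-3.35), Sult3a1 (-3.27), Cyp17a1 (-3.14), Noct (-2.59) and Herpud1 (-2.18). Krt4 is a squamous keratin that rose in both genotypes, and Slc34a2 was dim in both ERKO groups.

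Against MOER, ERKO responses were higher for Slco1a1 (5.60), Elovl3 (4.85), Reg3b (2.85), Saa3 (2.69) and Arntl (2.19). They were lower for Cyp17a1 (-3.90), Cyp3a13 (-3.10), Dbp (-2.46) and A1bg (-2.17). Slco1a1, Elovl3, A1bg, Cyp17a1, Saa3 and Arntl passed against both genotypes. The ERKO PPT arrays used for all of these values also held the muscle and squamous transcripts, whose part in the differences was not tested. The MOER oil arrays, used for the MOER differences, held pancreas transcripts, and their part was not tested either. Groups of 2 arrays are too small for a test of single arrays that stand apart.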

How the results depend on the processing

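The ERKO response held 3430 called probe sets, 1812 that rose and 1618 that fell, and its differences from wild type and MOER held 4266 and 2193. Array weights gave 880 (451 and 429) and 1195 for the MOER difference. Quantile normalization gave 2690 that fell and 3500 for the MOER difference. The 4 ERKO arrays alone gave 576 (338 and 238), requiring at least 2-fold gave 307 (226 and 81), and a Cyber-T-style test gave 257 (181 and 76). Without 1 array the calls ranged from 1200 to 5346, those that rose from 608 to 3719, those that fell from 592 to 3114, the wild type difference from 2873 to 6735 and the MOER difference from 1078 to 4802. Shared calls numbered 1676 without ERKO PPT 1, 1170 without ERKO PPT 2, 2874 without ERKO oil 1 and 2763 without ERKO oil 2, with 520 that rose and 516 that fell in all 4 fits. The cause of these shifts was not tested, and the fits that leave arrays out also rest on fewer of them. Of 183 named genes called, 146 kept the call in every fit without 1 array and 88 in all 24 alternatives.

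Signs turned for 11 values, none of them of a called result: Alb at -0.0768 under quantile normalization and -0.0780 without ERKO oil 2 (0.40 without ERKO oil 1), Igf1 at -0.0869 to 0.00404, Socs2 at -0.13 to 0.0672, Prtn3 at -0.57 to 0.0875, Akap5 at -0.23 to 0.0804 (0.0026 without ERKO oil 2), and the MOER differences of Srebf1, at -0.0535 to 0.24 (-0.00287 without ERKO PPT 1, -0.0097 without MOER PPT 2), and Acaca, at -0.17 to 0.00860. The cause was not tested.

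The labels do not say what a replicate number marks. Deviations of arrays with the same number correlated at 0.127 between ERKO PPT and ERKO oil, at 0.276 to 0.377 between the 3 pairs of oil groups and at -0.147 to 0.123 between the other pairs of groups, so the numbers were not taken to pair the arrays. With the replicate block 3466 probe sets were called (1844 rose, 1622 fell), with 4369 and 2180 for the differences. With 2 arrays a group, signal near the 40th percentile and the added 16 limit what dim genes can show.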
